A study of Mus musculus with 6 samples.

Results

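Genes of cholesterol synthesis, uptake and transport were examined in hearts that overexpress Pontin and in those of WT littermates, all after Ang-II infusion. The set holds 36 of the 56748 genes in the count table, taken by gene symbol: 19 enzymes that build cholesterol, 7 genes of the SREBP system that controls them, 3 genes that free cholesterol in the lysosome, 2 that move or esterify it, and 5 of its efflux and of the sterol-sensing LXR receptors. The set was chosen from values of this same contrast, in which Npc1 and Hsd17b7 had the 2nd and 3rd smallest p among the genes lower in Pontin cTG hearts, so the group differences of its members are given as a description and nothing rests on their p-values. Npc1 was kept apart, because the genes next to it on chromosome 18 were lower in the same libraries.

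Pontin cTG mice, on a C57Bl/6 background, carry a flag-tagged human Pontin cDNA driven by the cardiomyocyte promoter αMHC, and WT mice are their littermates without the transgene. Male mice were 10 weeks old when mini-osmotic pumps began to deliver Ang-II at 1.5 mg/kg body weight a day, which raises blood pressure and loads the heart, and hearts were taken after 14 days. Both groups received Ang-II and hearts without it were not analysed here, so the comparison asks how the transgene alters the infused heart and not how Ang-II acts. There were 3 libraries per group, each from the heart tissue of a single mouse. The p-values set group differences against the spread between mice, which edgeR estimates with information from all genes tested.

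Cells make cholesterol from acetyl-CoA through mevalonate, the isoprenoids and squalene, from which the sterol ring is closed, or take it up in lipoproteins that are opened in the lysosome. When membrane cholesterol is low, SCAP carries the SREBP transcription factors from the endoplasmic reticulum to the Golgi, where the site-1 and site-2 proteases release them to switch on synthesis and uptake genes, and the INSIG proteins hold SCAP back when cholesterol is plentiful. When sterols accumulate, oxysterols activate the LXR receptors, which switch on exporters such as ABCA1 and ABCG1 and the ubiquitin ligase MYLIP, which removes lipoprotein receptors. In the heart most cholesterol serves membranes, and macrophages in the tissue handle much of what is taken up from dying cells.

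Total counts ran from 12436822 to 13194038 in WT and from 14584102 to 16888124 in Pontin cTG libraries. Normalised counts below are deposited counts divided by the library size after TMM scaling and brought to a common size. Pontin cTG replicate 2 stood apart, at 52.7 on the first principal component (47.4% of the variance) with the other 5 libraries between -25.0 and 17.6. Ruvbl1, which encodes Pontin in the mouse, had normalised counts of 218 ± 2.72 in WT and 247 ± 5.79 in Pontin cTG libraries (mean ± SD, n = 3 each), with every Pontin cTG library higher and a log2 fold change of 0.18 (SE 0.12). Whether reads of the human cDNA are among these counts was not tested. All 7 cardiomyocyte markers were tested and their summed level per gene length (RPKM, counts per kilobase scaled to the library size) overlapped between the groups (15625 to 16581 RPKM in WT, 15530 to 16505 RPKM in Pontin cTG), while 0 of 6 adipocyte markers reached the minimum for testing. The summed levels of the fibroblast, endothelial, smooth muscle and erythroid marker lists overlapped between the groups as well. Actc1 weighed most in the cardiomyocyte sum, at 7866 RPKM in WT. Singly, 4 of the 7 cardiomyocyte markers had lower and 3 higher values in Pontin cTG hearts. Without overlap Actc1 was lower (log2 fold change -0.11), as 3.63% of all genes tested were. Tnni3 (0.30) and Myl2 (0.24) were higher without overlap, as 4.7% were.

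None of the members differed between Pontin cTG and WT hearts past an adjusted p of 0.05 in the quasi-likelihood test of edgeR, adjusted by Benjamini-Hochberg over 13888 genes, and neither did any other gene (0% of all genes tested). Of the 36 members 35 were tested, 19 with lower and 16 with higher values in Pontin cTG hearts, against 49.8% lower among all genes tested. At an unadjusted p under 0.05, 2 members were lower, Hsd17b7 and Npc1, where 1.03% of all genes tested were lower at that limit, and 0 were higher, where 1.02% were. The 3 WT and 3 Pontin cTG libraries did not overlap for 4 members. Npc1 and Hsd17b7 lay below WT in every Pontin cTG library, as 3.63% of all genes did, and Pmvk and Nr1h2 above it, as 4.7% did. Because the set was chosen on this contrast, nothing is read from these counts.

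Over all genes tested, 285 had an unadjusted p under 0.05 in edgeR. DESeq2 called 1 gene past an adjusted p of 0.05 (219 at an unadjusted p under 0.05) and limma-voom with sample quality weights 3 (810), none of them a member. With no filter on low counts edgeR called 3 genes, of which Npc1 was a member. The median log2 fold change of the members without Npc1 was -0.0030, against 0.0013 over all genes tested, whose middle part between the quartiles ran from -0.14 to 0.15. The range without Npc1 was from -0.68 in Hsd17b7 to 0.57 in Tm7sf2.

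**Figure D1:**
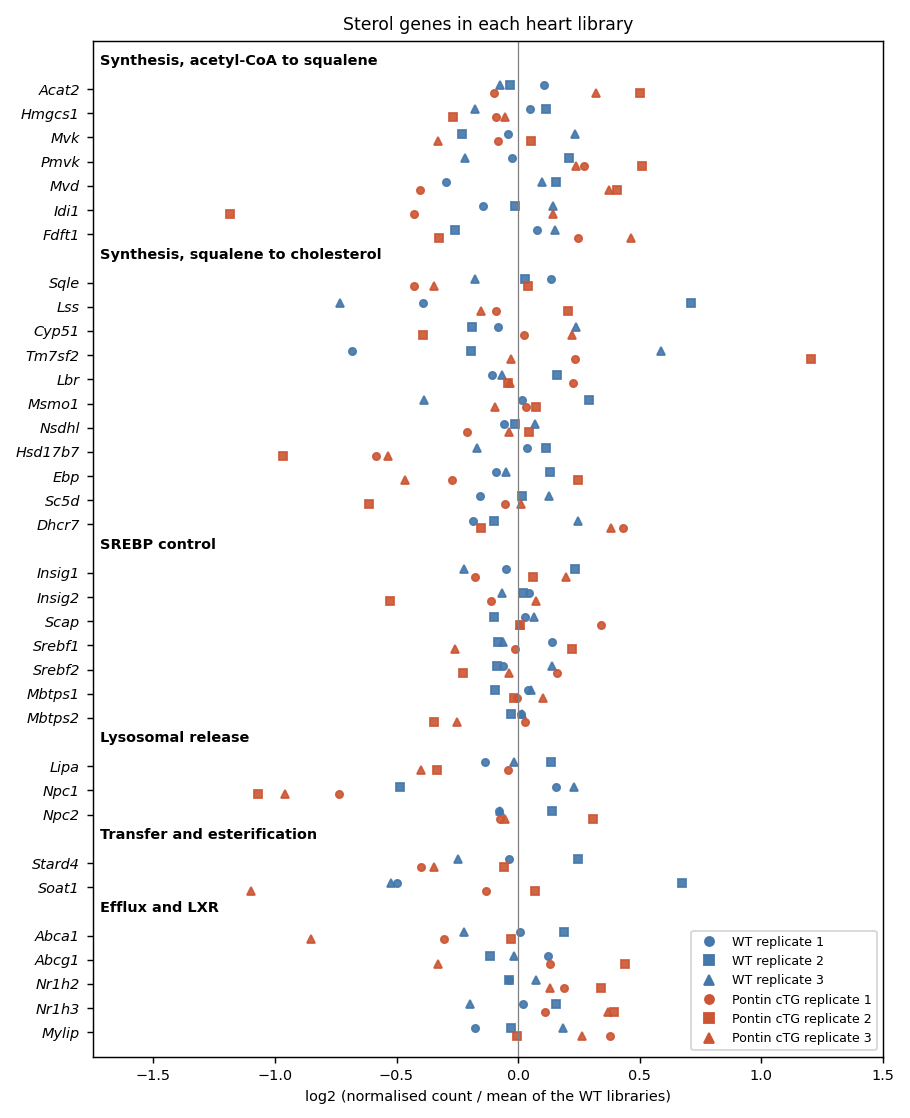
Normalised count of each tested member in each of the 6 libraries, as the log2 ratio to the mean of the 3 WT libraries (x axis), grouped by role. Points are single libraries, blue for WT and orange for Pontin cTG. The orange points of Hsd17b7 and Npc1 lie left of all their blue points, those of Pmvk and Nr1h2 lie right of theirs, and for the other members both colours overlap.

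**Figure D2:**
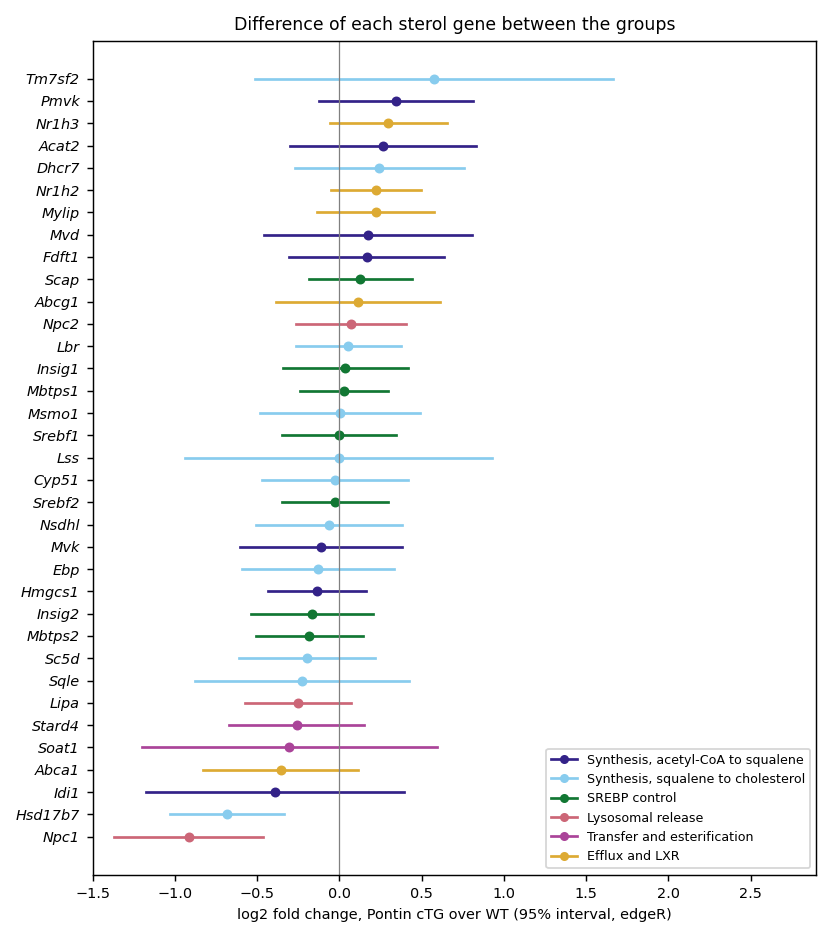
Log2 fold change of Pontin cTG over WT for the 35 tested members (points) with its 95% interval from edgeR (lines), coloured by role and sorted. The intervals of Npc1 and Hsd17b7 lie below 0, before any adjustment for the number of genes tested, and those of the other 33 members include 0.

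Levels were compared between genes per length, in the same RPKM unit, with the gene length of the table and the TMM-scaled library size. In WT hearts the members ran over a wide range around a median of 3.27 RPKM, close to the 3.50 of all genes tested. Insig2, which keeps SCAP in the endoplasmic reticulum, stood highest at 19.3 ± 0.754 RPKM (mean ± SD, n = 3 mice), followed by the LXR receptor gene Nr1h2 at 11.3 ± 0.501 and the lysosomal cholesterol carrier Npc2 at 9.08 ± 0.807. Fdft1 (7.74 ± 1.13), which makes squalene, Hmgcs1 (7.62 ± 0.789), which makes HMG-CoA, and Hsd17b7 (6.86 ± 0.677) came next, and none of these 3 differed from the gene just above it in this order by more than the summed SDs. Only 8 of the 35 steps between neighbours exceeded that spread, among them those below Insig2, Nr1h2 and Hsd17b7.

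At the low end, 6 members were under 1 RPKM in WT: Idi1, Soat1, Sqle, Tm7sf2, Lss and Fdps. A long annotated length lowers this value, and the lengths used were 10787 bases for Lss and 4403 for Tm7sf2. Sqle, the squalene epoxidase at the first oxygen-requiring step, had 0.437 ± 0.0470 RPKM and Lss, which closes the ring to lanosterol, 0.171 ± 0.0956. Fdps, the farnesyl diphosphate synthase, was nearly absent from the table. It had 1, 2 and 0 counts in WT and 4, 4 and 1 in Pontin cTG replicates, 12 in all, and was not tested. Whether reads that also match near copies were left out of its counts was not examined. Of the copies of members that could be matched by symbol, Idi1-ps1 had 14 counts and Acat3 had 2 over all 6 libraries.

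**Figure D3:**
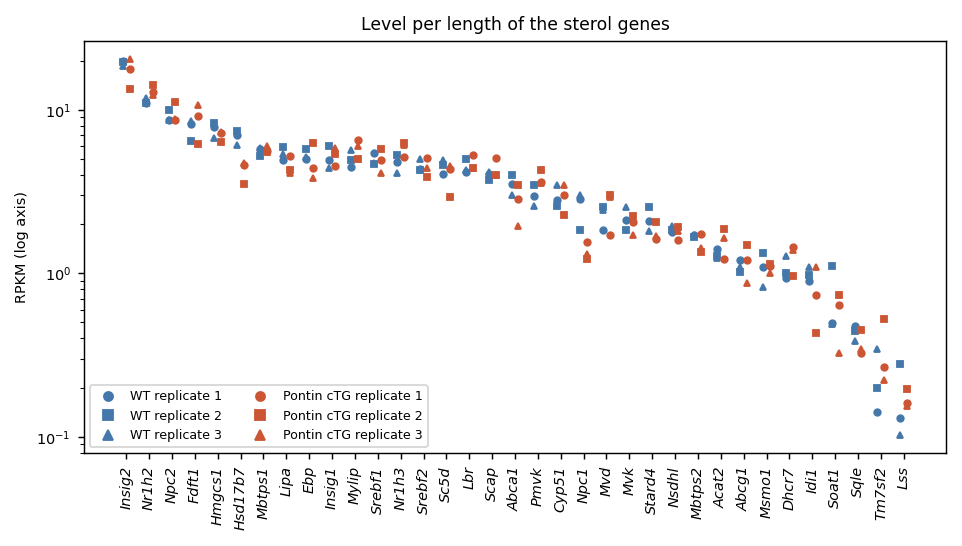
Level per length of 35 members (Fdps left out) in each library, in RPKM on a log axis, ordered by the WT mean. Points are single libraries. Levels run from 19.3 for Insig2 down to 0.171 for Lss in WT, and the members with the widest scatter are among the 6 under 1 on this scale.

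The 8 enzymes from acetyl-CoA to squalene, 7 of them tested, had a median of 0.17 on the log2 scale, 4 higher and 3 lower. Pmvk, the phosphomevalonate kinase, was the member of this branch whose groups did not overlap. Replicates 1 to 3 had normalised counts of 71.6, 84.1 and 62.6 in WT and 87.9, 104 and 85.8 in Pontin cTG hearts, with the lowest Pontin cTG library just above the highest WT library. The log2 fold change was 0.34 (SE, its standard error, 0.21, 95% interval -0.12 to 0.81). With counts scaled by library size alone its groups overlapped. Hmgcs1, a gene well known to answer to SREBP, had 509.9, 534 and 436 in WT and 464, 409 and 475 in Pontin cTG hearts, with overlap and a log2 fold change of -0.13 (SE 0.13), so that a difference beyond -0.43 or 0.16 lay outside the 95% interval.

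Idi1, the isopentenyl diphosphate isomerase, had 44.0, 48.2 and 53.7 in WT and 36.1, 21.4 and 53.7 in Pontin cTG hearts. Pontin cTG replicate 2 was the lowest library and replicate 3 was level with the highest WT library, and the log2 fold change of -0.39 (SE 0.35) was -0.11 without replicate 2 and -0.76 without replicate 3. Fdft1 had 474, 375 and 499 in WT and 533, 359 and 619 in Pontin cTG hearts, with Pontin cTG replicate 2 lowest of all 6 and replicates 1 and 3 highest. Its log2 fold change was 0.17 (SE 0.21), and 0.36 without replicate 2 and -0.011 without replicate 3. Fdft1 shares 774 bases with Ctsb on the other strand, a lysosomal protease gene with 43804 counts in all against 2890 of Fdft1, and whether the counting kept strand is not given in the sources used here. The others of the branch overlapped between groups: Acat2, the cytosolic thiolase, at 0.26 (SE 0.25), Mvd, the mevalonate diphosphate decarboxylase, at 0.17 (0.28), and the mevalonate kinase gene Mvk at -0.11 (0.22). The median of this branch was -0.011 without Pontin cTG replicate 3.

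The 11 enzymes from squalene to cholesterol comprised 7 lower and 4 higher genes, with a median log2 fold change of -0.026. Hsd17b7, the 3-keto-steroid reductase that completes removal of the C4 methyl groups from the ring, differed most. This enzyme also reduces estrone to estradiol in other tissues. Replicates 1 to 3 had normalised counts of 507, 534 and 439 in WT and 329, 253 and 340.4 in Pontin cTG hearts. Every Pontin cTG library lay below every WT library, with Pontin cTG replicate 2 lowest. The means were 493 ± 48.7 and 307 ± 47.8 (SD, n = 3 each), which gave a log2 fold change of -0.68 (SE 0.15, 95% interval -1.03 to -0.33) and a fold of 0.62, with a Benjamini-Hochberg adjusted p of 0.999 (edgeR, quasi-likelihood). Over the 15 alternatives to this fit its log2 fold change ran from -0.76 to -0.56 and its adjusted p from 0.49 to 0.9998.

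Hsd17b7 (ENSMUSG00000026675, chromosome 1 from 169777104 to 169796810 on the minus strand, GRCm39) was also set beside its surroundings, which were chosen after its values had been seen. Of the 5 nearest tested genes on each side, which spread over 2991 kb, 6 were lower and 4 higher in Pontin cTG hearts. Their log2 fold changes had a median of -0.10 and a range from -0.45 in Nos1ap to 0.13 in Rxrg. None of the 10 had groups that did not overlap, where 3.63% of all genes tested were lower and 4.7% higher without overlap. At an unadjusted p under 0.05 in edgeR there were 0, where 1.03% of all genes were lower and 1.02% higher. At such shares 10 genes would be likely to give few or none, so nothing is read from these counts. The nearest tested neighbours of Hsd17b7 were Ddr2, a collagen receptor gene, at -0.24 (SE 0.16) and Rgs4, a regulator of G-protein signalling, at -0.099 (0.16).

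Hsd17b7 and Hmgcs1 belong to the same pathway. A difference between them was not tested, and their 95% intervals overlap (-1.03 to -0.33 and -0.43 to 0.16). The 250 bases before the start of each gene are shown as a description. They are RefSeq windows on GRCm38.p6, chr1:169969206-169969455 on the minus strand for Hsd17b7 and chr13:119690101-119690350 on the plus strand for Hmgcs1, written 5′ to 3′ in the direction of the gene. Capitals mark 3 motifs searched on both strands: CCAAT, bound by NF-Y and read as ATTGG on the other strand, the E-box CACGTG, and the sterol regulatory element TCACNCCAC, bound by SREBP.
Hsd17b7: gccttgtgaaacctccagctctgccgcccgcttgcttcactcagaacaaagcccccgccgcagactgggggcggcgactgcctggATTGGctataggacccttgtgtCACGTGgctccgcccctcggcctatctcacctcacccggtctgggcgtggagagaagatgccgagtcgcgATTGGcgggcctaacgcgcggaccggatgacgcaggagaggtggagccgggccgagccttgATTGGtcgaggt
Hmgcs1: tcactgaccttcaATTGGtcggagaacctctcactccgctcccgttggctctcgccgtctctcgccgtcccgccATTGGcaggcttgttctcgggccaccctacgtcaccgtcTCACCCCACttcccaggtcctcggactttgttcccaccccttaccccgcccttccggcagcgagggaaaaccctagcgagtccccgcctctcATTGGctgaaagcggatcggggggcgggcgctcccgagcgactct
Counted from the start of the gene, with -1 the last base shown, CCAAT began at -165, -73 and -12 in Hsd17b7 and CACGTG at -143. In Hmgcs1 CCAAT began at -237, -176 and -45 and the sterol regulatory element at -137. Of the 36 members 30 had such a window. CCAAT was in 23 of the 30, against 33.8% of the 32851 windows of all genes, CACGTG in 6, against 6.02%, and TCACNCCAC in Hmgcs1 alone, against 1.05%. A match is a description of these letters and not a binding site. Only these exact letters were searched, and only within 250 bases, so a missing match does not show that a gene lacks such an element.

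Of the other late enzymes none had groups without overlap. Sqle had normalised counts of 37.4, 34.8 and 30.2 in WT and 25.4, 35.1 and 26.9 in Pontin cTG hearts, with WT replicate 3 and Pontin cTG replicates 1 and 3 the lowest, and a log2 fold change of -0.23 (SE 0.29). Lss had 19.8, 42.6 and 15.7 in WT and 24.4, 30.0 and 23.4 in Pontin cTG hearts. WT replicate 2 alone stood above the rest, and the log2 fold change of -0.0042 (SE 0.41) was 0.54 without it. Tm7sf2 and Lbr both encode sterol C14 reductases, Lbr in the nuclear envelope, where it also anchors heterochromatin. Tm7sf2, at 109 counts in all, had 8.81, 12.3 and 21.2 in WT and 16.6, 32.5 and 13.9 in Pontin cTG hearts, and its log2 fold change of 0.57 (SE 0.48) was 0.11 without Pontin cTG replicate 2, its highest library, and 1.00 without WT replicate 3. It shares 532 bases with Vps51 on the same strand. Lbr, at 4.51 ± 0.460 RPKM in WT against 0.228 ± 0.103 for Tm7sf2, had a log2 fold change of 0.055 (0.14).

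Cyp51, the lanosterol demethylase, had a log2 fold change of -0.026 (SE 0.20) and Msmo1, the methylsterol monooxygenase just before Nsdhl and Hsd17b7 in the pathway, 0.0049 (0.22). Nsdhl, whose product works in the same C4 demethylation complex as HSD17B7, had 71.6, 74.0 and 78.3 in WT and 64.4, 77.1 and 72.8 in Pontin cTG hearts. Its groups overlapped and its log2 fold change was -0.062 (95% interval -0.51 to 0.38), an interval that overlaps that of Hsd17b7. A difference between these genes was not tested. The last steps are the isomerase Ebp at -0.13 (SE 0.20), the desaturase Sc5d at -0.19 (0.18) and the 7-dehydrocholesterol reductase Dhcr7 at 0.24 (0.23). Without Pontin cTG replicate 2 those values were -0.37, -0.020 and 0.41, and that of Ebp then had an unadjusted p under 0.05.

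The genes of the SREBP system lay close to 0. The 7 genes, 4 lower and 3 higher, had log2 fold changes from -0.18 to 0.13 with a median of -0.0018, and 0 had groups without overlap. Srebf2, whose product drives the cholesterol genes, had normalised counts of 440.5, 433 and 506 in WT and 514, 393 and 448 in Pontin cTG hearts. Srebf1, whose product leans to fatty acid genes, had 432, 370.2 and 376 in WT and 389.6, 458 and 328 in Pontin cTG hearts. In both genes the libraries were interleaved, with log2 fold changes of -0.027 (95% interval -0.35 to 0.29) and -0.0018 (-0.35 to 0.34). Scap had a log2 fold change of 0.13 (SE 0.14), with Pontin cTG replicate 1 above the other 5 libraries.

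The site-1 and site-2 proteases cut the SREBP precursors. Mbtps1, the site-1 protease gene, had 858, 779.6 and 864 in WT and 832, 825 and 895 in Pontin cTG hearts, a log2 fold change of 0.028 (95% interval -0.24 to 0.30), and a within-group SD that was lower than that of all but 3.2% of genes tested. Mbtps2, the site-2 protease gene on the X chromosome, had 244, 238 and 245 in WT and 247, 191 and 204 in Pontin cTG hearts. Here the WT libraries lay together and Pontin cTG replicates 2 and 3 below them, with replicate 1 above, and the log2 fold change was -0.18 (SE 0.14). Insig2 had 973, 958 and 903 in WT and 874, 656 and 994 in Pontin cTG hearts. Its log2 fold change of -0.17 (SE 0.16) came with 1 low library, Pontin cTG replicate 2, and was -0.016 without it. Insig1, which SREBP itself switches on, had a log2 fold change of 0.035 (SE 0.17).

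In the lysosome, LIPA frees cholesterol from its esters and the soluble NPC2 hands it to the membrane protein NPC1, which exports it. Lipa had normalised counts of 470.2, 568 and 511 in WT and 502, 409 and 392 in Pontin cTG hearts. Pontin cTG replicates 2 and 3 lay below every WT library and replicate 1 within them, with a log2 fold change of -0.25 (SE 0.14). Npc2 had 659.6, 767 and 661 in WT and 660.0, 861 and 669.6 in Pontin cTG hearts, with replicate 2 the highest library of each group and a log2 fold change of 0.070 (0.15).

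Npc1 (ENSMUSG00000024413, chromosome 18 from 12322749 to 12369457 on the minus strand, GRCm39) had normalised counts of 456, 293 and 479.6 in WT and 246, 195 and 210.5 in Pontin cTG replicates 1 to 3. All Pontin cTG libraries lay below all WT libraries, and WT replicate 2 lay between the other WT libraries and the Pontin cTG libraries. The means were 409 ± 102 and 217 ± 26.1 (SD, n = 3 each), which gave a log2 fold change of -0.91 (SE 0.20, Benjamini-Hochberg adjusted p = 0.999 by edgeR). Over the 15 alternatives the log2 fold change ran from -1.11 to -0.78 and the adjusted p from 0.032, with no filter on low counts, to 0.9998.

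Most genes around Npc1 shared its pattern of libraries. The 5 nearest tested genes on each side were Gm6277, Cables1, Tmem241, Riok3 and Rmc1, and Ankrd29, Lama3, Ttc39c, Osbpl1a and Impact, over 1172 kb. All 10 had lower values in Pontin cTG hearts, which was known when Npc1 was set apart and is given as a description. Their log2 fold changes had a median of -0.85 and ran from -1.20 in Impact to -0.46 in Cables1. In 3 of the 10 the groups did not overlap, where 3.63% of all genes tested were lower without overlap. At an unadjusted p under 0.05 in edgeR 5 were lower, where 1.03% of all genes tested were. Riok3, a kinase gene, had 1183, 740.4 and 1284 in WT and 646, 522 and 673 in Pontin cTG hearts. Osbpl1a, the gene of an oxysterol-binding protein of late endosomes, had 1119.9, 593 and 1103 in WT and 539, 381 and 542 in Pontin cTG hearts.

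In 9 of these 10 genes WT replicate 2 was the lowest WT library and all 3 Pontin cTG libraries lay below WT replicates 1 and 3. This pattern, found in 5.40% of all genes tested, was read from the libraries of Npc1 after its values had been seen. Nothing therefore rests on the count of 9. The exception was Impact, an imprinted regulator of translation, with 263, 296 and 281 in WT and 20.5, 327 and 13.9 in Pontin cTG hearts, where Pontin cTG replicates 1 and 3 were far below the other 4 libraries. Impact passed an adjusted p of 0.05 under limma-voom, at a log2 fold change of -3.60, and in edgeR without Pontin cTG replicate 2, at -4.03. Npc1 shares 967 bases with Rmc1 on the other strand, which had 1383 counts in all against 1827 of Npc1. What set the level of this stretch was not tested.

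**Figure D4:**
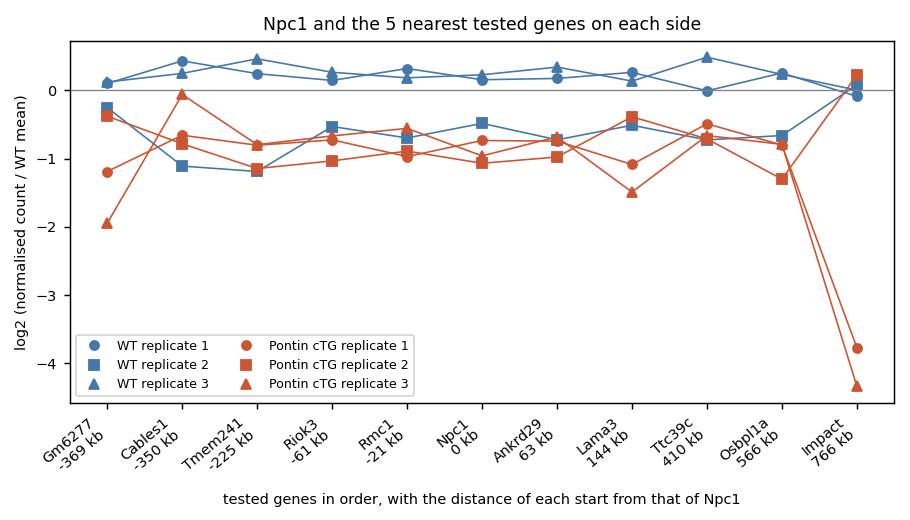
Npc1 and the 5 nearest tested genes on each side in chromosomal order (x axis, with the distance of each gene's start from that of Npc1 in kb), as the log2 ratio of the normalised count to the WT mean (y axis), with 1 line per library. WT replicates 1 and 3 run above WT replicate 2 and the 3 Pontin cTG libraries from Gm6277 to Osbpl1a, and at Impact Pontin cTG replicates 1 and 3 stand far below the rest.

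Stard4, which carries cholesterol between membranes, had normalised counts of 164, 199.7 and 142 in WT and 128, 162 and 133 in Pontin cTG hearts. The lowest 2 libraries were Pontin cTG, but WT replicate 3 lay below Pontin cTG replicate 2, and the log2 fold change was -0.26 (SE 0.18). Soat1, which esterifies cholesterol for storage and is rich in macrophages, had 68.3, 154 and 67.1 in WT and 87.9, 101 and 45.0 in Pontin cTG hearts. WT replicate 2 stood highest by far and Pontin cTG replicate 3 lowest, a within-group spread wider than that of 92.5% of genes tested. The log2 fold change of -0.31 (SE 0.40) was 0.20 without WT replicate 2.

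Macrophage markers differed across the same libraries. The summed level per length of the 7 markers, all tested and none at 0, was 104, 166 and 117 RPKM in WT and 133, 142 and 85.6 in Pontin cTG replicates 1 to 3, with WT replicate 2 highest and Pontin cTG replicate 3 lowest, as in Soat1. WT replicate 2 was the highest library for 6 of the 7 markers and Pontin cTG replicate 3 the lowest for 6, but most of the sum came from the complement genes C1qa and C1qb. Together these 2 had 72.9, 109 and 84.8 RPKM in WT and 100.5, 114 and 62.3 in Pontin cTG hearts. The other 5 markers summed to 31.5, 57.3 and 32.0 RPKM in WT and 32.5, 28.1 and 23.3 in Pontin cTG hearts, so that Pontin cTG replicate 2 was high in the C1q genes and not in the others. Between groups 5 of the 7 markers had lower values and 2, C1qa and C1qb, higher values, with a median of -0.39 on the log2 scale, and Mrc1 had an unadjusted p of 0.0484 from edgeR (adjusted p = 0.999 with Benjamini-Hochberg adjustment). In bulk tissue fewer cells of a type and less RNA per cell cannot be told apart, and the part of macrophages in the values of Soat1, Abca1 and the other members was not tested.

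**Figure D5:**
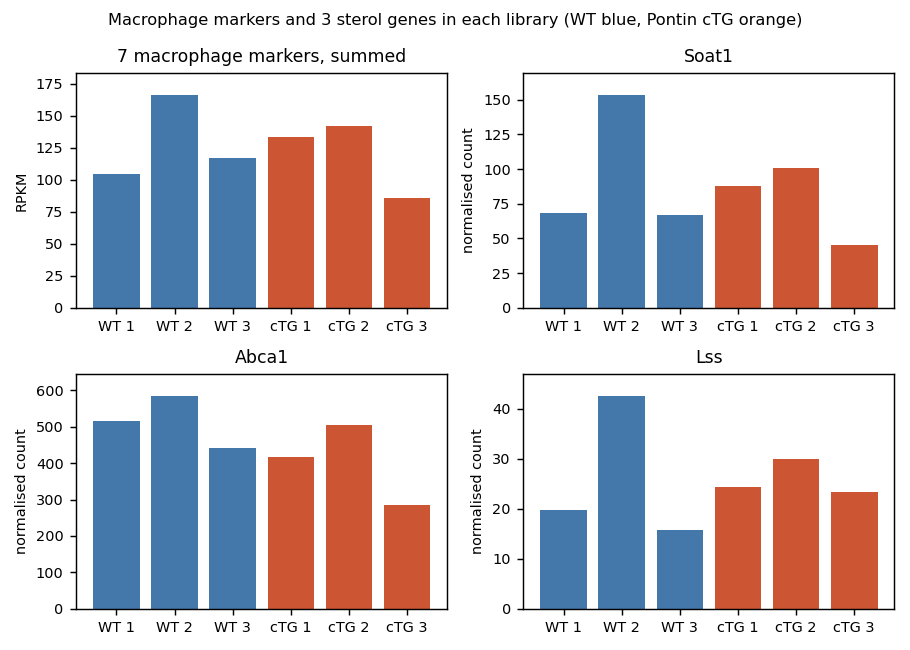
Summed level per length of 7 macrophage markers (RPKM) and normalised counts of Soat1, Abca1 and Lss in each of the 6 libraries, WT in blue and Pontin cTG in orange. WT replicate 2 is the highest bar in all 4 panels, and Pontin cTG replicate 3 is the lowest for the markers, Soat1 and Abca1. The 3 genes do not stand for the members as a set. Of the 35 tested members, WT replicate 2 was the highest library for 9 and Pontin cTG replicate 2 for 10.

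Of the 5 genes of efflux and LXR, 4 were higher and 1 was lower, with a median log2 fold change of 0.22. The exporter genes among them, Abca1 and Abcg1, had log2 fold changes of -0.36 and 0.11. The LXR receptor genes were both higher. Nr1h2, which encodes LXRβ, had normalised counts of 519, 519 and 560.1 in WT and 607, 674 and 584 in Pontin cTG hearts. The groups did not overlap, also with counts scaled by library size alone, and its log2 fold change was 0.22 (SE 0.12, 95% interval -0.050 to 0.50), with a range from 0.16 to 0.27. Nr1h3, which encodes LXRα, had 171, 187 and 146 in WT and 182, 221 and 217 in Pontin cTG hearts. Pontin cTG replicates 2 and 3 lay above every WT library and replicate 1 below WT replicate 2, with a log2 fold change of 0.30 (SE 0.16, 95% interval -0.059 to 0.65).

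Abca1, Abcg1 and Mylip, which LXR is known to switch on, each overlapped between the groups. Their 95% intervals included 0, and Abcg1 changed sign in 2 of 15 alternatives, so no common or opposed direction is read from them. Abca1, which loads cholesterol onto apolipoprotein A-I, had 516, 586 and 440.4 in WT and 416, 503 and 285 in Pontin cTG hearts. Pontin cTG replicate 3 was the lowest of all libraries and replicate 2 lay within the WT range, and the log2 fold change of -0.36 (SE 0.21) was -0.56 without Pontin cTG replicate 2 and -0.16 without replicate 3. Abca1 was past an unadjusted p of 0.05 without Pontin cTG replicate 2 and under limma-voom, the replicate block and no filter on low counts, fits in which 2.85%, 3.01%, 2.32% and 0.960% of all genes tested were lower at that limit. Abcg1, which exports cholesterol to mature HDL, had 123, 104 and 112 in WT and 124, 153 and 90.1 in Pontin cTG hearts. Its extreme libraries were both Pontin cTG, replicate 2 at the top and replicate 3 at the bottom, and the log2 fold change was 0.11 (SE 0.22). Mylip had 203, 224 and 260.5 in WT and 298, 229 and 275 in Pontin cTG hearts, with a log2 fold change of 0.22 (0.16), or 0.32 without Pontin cTG replicate 2.

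A wider list of 52 sterol genes was read beside the members, written from general knowledge. Of the 49 tested, 28 were lower and 21 higher in Pontin cTG hearts (median -0.033 on the log2 scale), and 0 passed an adjusted p of 0.05 in edgeR. At an unadjusted p under 0.05 there were also 0, where 1.03% of all genes tested were lower and 1.02% higher. DESeq2 and limma-voom gave 0 of the wider genes at that limit as well. Without overlap 1 of the 49 was lower and 1 higher, where 3.63% and 4.7% of all genes tested were. Nothing is read from these counts. Erlin2, the lower one, is named here after its values had been seen. This gene, whose product is part of the complex that marks sterol-regulated proteins for destruction, had 503, 478 and 474 in WT and 434, 393 and 466 in Pontin cTG hearts, a log2 fold change of -0.17 (SE 0.12).

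By role, the medians of the wider genes lay between -0.12 and 0.015 on the log2 scale, while single genes ran from -0.40 in Osbpl8 to 0.56 in Ch25h, both named for being the extremes. Ch25h had few reads, from 4 to 40 deposited counts per library, and an SE of 0.65, and Osbpl8 had an SE of 0.24. The 9 genes of the isoprenoid branches to dolichol, ubiquinone and protein prenylation, all tested, had log2 fold changes from -0.13 to 0.11 with a median of -0.0034. The 11 genes of sterol sensing and degradation had a median of -0.033 (from -0.23 to 0.19), the 6 uptake receptors and adaptors -0.12 (from -0.23 to 0.051), the 14 tested transfer proteins and ester hydrolases -0.036 (from -0.40 to 0.33), and the 9 tested genes of efflux, oxysterols and LXR partners 0.015 (from -0.35 to 0.56).

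The spread between libraries limited what could be told for the members. Pontin cTG replicate 2 was the highest or the lowest of the 6 libraries for 20 of the 35 tested members (57.1%, against 60.9% of all genes tested), and WT replicate 1 for 7. The within-group SD was larger in Pontin cTG than in WT for 24 of the 35 members (68.6%, against 69.6% of all genes). Of the 2 members lower at an unadjusted p under 0.05, both kept that in each of the 6 fits that left out 1 library. In those fits 0.514% to 2.85% of all genes tested were lower at that limit. The fits reuse the values on which the set was chosen, so nothing rests on that result. Without Pontin cTG replicate 2, Npc1 and Hsd17b7 were joined by Abca1 and Ebp, with Fdft1 and Mylip then higher. In that fit 2.85% of all genes tested were lower and 2.05% higher at that limit. Without Pontin cTG replicate 1, Npc1 and Hsd17b7 were joined by Lipa, where 2.42% of all genes were lower.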

How the data were processed

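RNA from whole heart tissue was extracted with Trizol and sequenced as 6 libraries. The authors deposited whole-number counts per Ensembl gene for all libraries in 1 table, not normalised. The submitters' processing notes name fastp, HISAT2, featureCounts, DESeq2 and GRCm39, while the paper's methods, written for all of its RNA-seq experiments, name Trimmomatic, STAR, mm10 and Gencode M25. Both are given because the table does not say which was used, and a different aligner or annotation would move reads between overlapping genes and near copies. Gene positions are those in the table and are read as GRCm39. Columns were matched to samples through the column names in the labels (0 left unmatched).

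Members and lists were chosen with earlier results of these data known. Genes were filtered with filterByExpr (minimum count 10), scaled by TMM and compared by genotype alone with the robust quasi-likelihood F test of edgeR 4.0.16 (R 4.3.3), with p-values of the 13888 genes left adjusted by Benjamini-Hochberg. The standard error is the log2 fold change divided by the square root of F. With 3 mice against 3, an exact permutation test of 1 gene cannot go below p = 0.1. No 2 libraries agreed within sampling noise (chi-square per gene of at least 5.62). Same-numbered libraries had correlated deviations of 0.064, 0.43 and 0.18, and no label names a shared litter, so libraries were treated as unpaired. The fit was tested on simulated counts before use.

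All members could be named, and of the wider list genes without overlap and with an unadjusted p under 0.05, which held for 0 of them. Erlin2, Osbpl8, Ch25h and Tspo of that list were named outside this rule, after their values had been seen. Around Npc1 the 5 nearest tested genes on each side were named. Alternatives were DESeq2 1.42.0, its size factors, library size alone, no filter, a minimum of 10 counts per library, only protein-coding genes, no mitochondrial genes, the replicate block, limma-voom (limma 3.58.1) and each library left out. The paper's methods mention an outlier removed after principal component analysis without naming it, and all 6 libraries were used here. Promoter windows are from RefSeq on GRCm38.p6, and their coordinates are not compared with those of the table. No such window was available for the other 6 members. The values of 1 gene of the wider list are not reported here.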

Additional observations from a re-analysis of the deposited data

How the results depend on the processing

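The count of 0 genes past an adjusted p of 0.05 became 1 with DESeq2 and 3 with no filter on low counts, with limma-voom and without Pontin cTG replicate 2 (0 to 3 over the fits that left out 1 library), and the count of members past it became 1, Npc1, with no filter and stayed at 0 otherwise. Members lower at an unadjusted p under 0.05 numbered 2 to 4 over the fits that left out 1 library and those higher 0 to 2 (0.514% to 2.85% and 0.333% to 2.05% of all genes tested), and limma-voom gave 2 higher, Mylip and Dhcr7 (2.82% of all genes). Members without overlap numbered 2 to 6 lower and 2 to 5 higher when 1 library was left out, where 5.94% to 10.5% of all genes tested were lower without overlap and 7.21% to 11.0% higher, and 1 higher, Nr1h2, with library size alone, which moved the median of all genes to 0.031. The median of the 19 synthesis enzymes was 0.049 under limma-voom and -0.075 to 0.0061 when 1 library was left out, against -0.015. The median of the tested members other than Npc1 changed sign in 8 of 15 alternatives (-0.026 to 0.031), by less than the spread between replicates. In the wider list 1 gene, Tspo, was higher at an unadjusted p under 0.05 without Pontin cTG replicate 3, where 1.60% of all genes tested were. The other fits that left out a library gave 0. The cause of these shifts was not tested.

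Of 524 log2 fold changes of the 35 tested members under the alternatives, 489 kept their sign and 35, in 15 members, did not. Lss was 0.025 with library size alone, 0.0044 under the minimum of 10 counts per library and 0.26 under limma-voom. Srebf1 was 0.039 with library size alone, 0.0087 under that minimum and 0.0011 with protein-coding genes only. Msmo1 was -0.0049 with no filter. Under limma-voom Cyp51 was 0.067, Srebf2 0.076 and Abcg1 -0.061. When 1 library was left out the log2 fold change ran from -0.26 to 0.54 for Lss, -0.13 to 0.11 for Srebf1, -0.15 to 0.17 for Msmo1, -0.17 to 0.13 for Cyp51, -0.12 to 0.063 for Srebf2, -0.083 to 0.29 for Abcg1, -0.019 to 0.063 for Mbtps1, -0.54 to 0.20 for Soat1, -0.21 to 0.032 for Mvk, -0.056 to 0.17 for Insig1, -0.029 to 0.14 for Lbr, -0.12 to 0.014 for Nsdhl, -0.065 to 0.15 for Npc2, -0.011 to 0.36 for Fdft1 and -0.37 to 0.013 for Ebp. All alternatives kept the direction of Hsd17b7, Npc1, Pmvk, Nr1h2, Nr1h3, Mylip, Abca1, Lipa and the 10 genes beside Npc1. The alternatives reuse the same counts, so nothing rests on that result.

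With the replicate number as a block, 0 genes passed an adjusted p of 0.05 and 499 an unadjusted p of 0.05, against 285. The correlations of same-numbered libraries were 0.064, 0.43 and 0.18 for numbers 1 to 3, and no label names a shared litter. Whether these libraries were paired is therefore not known. Under the block the members lower at an unadjusted p under 0.05 were 3, with Abca1 added (2.32% of all genes), 1 gene of the wider list, Osbpl8, was lower, and Lss was 0.069.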
